A study of Mus musculus with 11 samples.

Results

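Fenestrated endothelial cells were picked out of single-cell RNA-seq libraries of the mouse right brain, where they form a small minority beside the endothelial cells of the blood-brain barrier. A cell was kept if it held more than 500 genes, more than 1000 UMIs (unique molecular identifiers, one per captured transcript) and under 25% mitochondrial UMIs. It was then counted as fenestrated endothelium if it held at least 1 UMI of Pecam1 or Cdh5, which every endothelial cell uses, and UMIs of at least 3 of the 6 genes Plvap, Esm1, Igfbp3, Cd300lg, Col13a1 and Gpihbp1, Plvap being required. Cells with 2 or more of 7 genes of mural cells, microglia, oligodendrocytes and astrocytes were left out. This gave 172 cells among 132437 retained cells, or 0.130%. Because these measured genes chose the cells, their levels are given below as a description only.

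Capillaries of the choroid plexus lie in the stroma beneath an epithelium that secretes cerebrospinal fluid. Their wall is pierced by fenestrae, small pores bridged by a diaphragm made of the protein encoded by Plvap, and it lacks the sealed junctions and the transporters of the brain capillaries that form the blood-brain barrier. Signalling by vascular endothelial growth factor (VEGF) from the epithelium is known to maintain fenestrae, whereas Wnt signalling maintains the barrier type of capillary. Fenestrated capillaries also occur in the circumventricular organs and the pituitary, and the counts hold no position, so the anatomical site of the cells was not checked.

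The study followed cerebral ischaemia-reperfusion injury in C57BL/6 wild-type (WT) mice and in mice with a conventional deletion of Lrg1, which removes the gene from every cell of the body. Lrg1 encodes leucine-rich alpha-2 glycoprotein 1, a secreted protein that acts on TGF-beta signalling in endothelium. Injury was made by filament occlusion of the middle cerebral artery followed by reperfusion (MCAO/R), with sham surgery as control. Each of the 11 libraries came from 1 mouse, with 3 sham + WT, 3 sham + Lrg1-/- (replicates 1, 2 and 5), 2 MCAO/R + WT and 3 MCAO/R + Lrg1-/- mice (replicates 1, 2 and 5). The methods list several reperfusion times, and the sources used here do not tie the sequenced mice clearly to one of them.

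Libraries held 37159497 to 171813031 UMIs over all their barcodes. Lrg1 had 192 to 658 UMIs in the retained cells of the sham + WT libraries, 17799 and 16183 in the MCAO/R + WT libraries, and 0 in every Lrg1-/- library but MCAO/R + Lrg1-/- replicate 5, which held 1. The methods give the wild-type mice as male and state no sex for the Lrg1-/- mice. MCAO/R + Lrg1-/- replicates 1 and 2 held Xist, the transcript of the inactive X chromosome, at 366 and 476 CPM (counts per 1000000 UMIs), with the Y-linked gene Ddx3y at 0.407 and 0.473. In the other 9 libraries Xist was at or below 1.05 and Ddx3y at or above 105 CPM. Of the selected cells, 5 carried a barcode that also occurred in another library, against 4089 such barcodes among all retained cells.

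Most selected cells held endothelial genes beyond those that the rule asked for. Of the 172 cells, 168 held at least 3 of 6 endothelial genes (Pecam1, Cdh5, Cldn5, Flt1, Egfl7, Esam). Part of this count was fixed in advance, since the rule required Pecam1 or Cdh5. Of the genes that did not choose these cells, Flt1 was detected in 165, Egfl7 in 163, Esam in 153 and Cldn5 in 79. The counts of the rule's own genes describe the choice. Igfbp3 was detected in 164 cells, Cd300lg in 144, Gpihbp1 in 139, Col13a1 in 138 and Esm1 in 113, and 80 cells held all 6 genes of the rule while 22 held exactly 3. The 22 cells just inside the rule had 9.81 Plvap UMIs per 10000 after MCAO/R (11 UMIs in 6 cells) and 6.64 after sham surgery (50 UMIs in 16 cells). The cells just outside it, 99 after MCAO/R and 31 after sham surgery with Plvap and only 1 other gene, had 0.644 (131 UMIs) and 2.38 (71 UMIs), and summed barrier genes at 58.2 and 130 against 28.5 and 39.99 just inside. Since both classes needed at least 1 Plvap UMI, the Plvap rate per 10000 moves with depth, and the MCAO/R cells held 2034487 UMIs in 99 cells just outside against 11211 in 6 just inside. Plvap-positive cells outside the rule are not part of what follows.

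Fenestrated cells made up about 1 in 100 endothelial cells of sham + WT brains and a smaller share elsewhere. Replicates 1, 2 and 3 of the sham + WT group gave 29, 23 and 34 cells, or 1.07%, 1.14% and 1.28% of endothelial cells. The sham + Lrg1-/- libraries gave 8, 4 and 2 cells, or 0.541%, 0.382% and 0.417%. After MCAO/R the WT libraries gave 22 and 7 cells, or 0.673% and 0.231%, and the Lrg1-/- libraries gave 4, 23 and 16 cells, or 0.634%, 0.375% and 0.652%. No library of the other 3 groups reached the lowest sham + WT share, but most exact 95% binomial intervals were wide, for example 0.717 to 1.53% for sham + WT replicate 1 and 0.173 to 1.61% for MCAO/R + Lrg1-/- replicate 1. These intervals cover counting error only, and since the rule reads the same genes that may differ between groups, the shares were not tested.

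**Figure D1:**
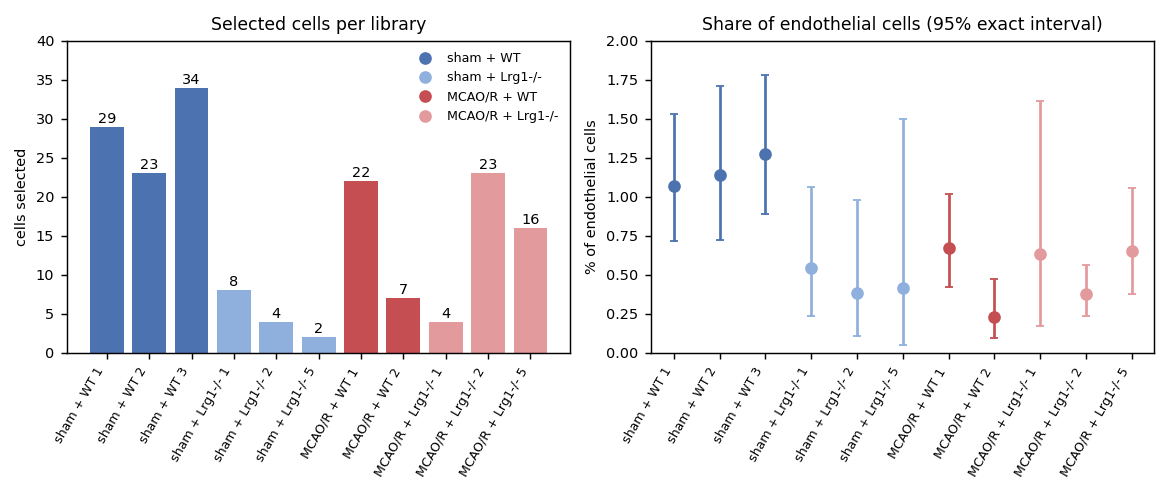
Left, number of selected fenestrated endothelial cells in each of the 11 libraries (bars, with the count above each); right, their share of endothelial cells in percent with the exact 95% binomial interval, coloured by group. The 3 sham + WT libraries lie at 1.07 to 1.28% and the 8 others at 0.231 to 0.673%.

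Some shares moved when depth was made equal. Cells under 2000 UMIs were dropped, which left 154 of the 172 fenestrated cells, the rest were thinned to 2000 UMIs, and the rule was applied again. The shares were then 1.09%, 1.20% and 1.27% for sham + WT and 0.0983%, 0% and 0.590% for sham + Lrg1-/-. They were 0.797% and 0.338% for MCAO/R + WT, and 0.517%, 0.465% and 0.561% for MCAO/R + Lrg1-/-. The 0 in sham + Lrg1-/- replicate 2 was 0 of 753 cells, which allows (at 3 counts of the total) a share of up to 0.398%. The libraries also differed widely in choroid plexus epithelium, with 37 to 240 epithelial cells in the 5 WT libraries and 1013 to 3400 in the 6 Lrg1-/- libraries, so that there were 109 to 218 fenestrated cells per 1000 epithelial cells in WT and 1.97 to 9.91 in Lrg1-/- libraries. The part of this difference in the shares was not tested.

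Against the other endothelial cells of the same library (those with at least 3 of the 6 endothelial genes and no Plvap, 25376 in all), the fenestrated cells held more transcript of peripheral capillary genes and less of barrier genes. This was described without a test, since the cells had been chosen from the same counts. In the 6 libraries with at least 10 fenestrated cells, 4493 genes reached a mean of 50 CPM in either population. Of these, 129 (2.87%) were at least 2 times higher in the fenestrated cells in all 6 libraries and 101 (2.25%) were at or below 0.5 times. In a sum over cells, a lower level can mean fewer cells with the transcript or less of it per cell. The sum alone does not tell these apart, and the shares of cells with a UMI given below do so in part.

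The genes with the highest ratios were of varied function. Median UMIs per cell ranged from 2784 to 16870 by library in the fenestrated and from 3284 to 10350 in the other endothelial cells, which bears on the shares of cells with a UMI given here. Rbp7, a retinol-binding protein (chromosome 4, 149449687-149454978, minus strand, GRCm38, ENSMUSG00000028996), averaged 393 CPM in fenestrated and 0.382 in other endothelial cells. It was detected in 102 of the 172 cells (59.3%) against 0.292% of the others. Its level by library was 293, 387 and 130.2 in sham + WT, 209, 286 and 1235 in sham + Lrg1-/-, 220.3 and 389 in MCAO/R + WT, and 407, 844 and 486 in MCAO/R + Lrg1-/- mice, so the groups overlapped. Chrm2, the M2 muscarinic acetylcholine receptor, averaged 198 against 0.183, and Btnl9, a butyrophilin-like membrane protein, 124 against 0.122. Car8, a carbonic anhydrase-related protein, averaged 438 against 1.62 and was found in 125 cells (72.7%) against 0.899%. The mechanosensitive channel gene Piezo2 averaged 476 against 3.38 and was found in 124 cells (72.1%) against 1.37%. Cyp26b1, which breaks down retinoic acid, averaged 262 against 2.23, so that a retinol carrier and a retinoic acid hydroxylase were both among the genes that set these cells apart.

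Of 16 receptors and mediators of VEGF, angiopoietin and TGF-beta signalling at this level, Kdr and Nrp1 were the 2 at least 2 times higher in all 6 libraries. Plpp1 and Plpp3, which dephosphorylate bioactive lipids at the cell surface, averaged 2122 and 2438 CPM in the fenestrated cells against 65.2 and 84.9 in the others. They were detected in 166 and 165 cells (96.5% and 95.9%) against 31.9% and 23.8%. Kdr, the main VEGF receptor, was found in 153 cells (89.0%) against 49.5% and was 8.73 times higher in the median library, and its co-receptor Nrp1 was 12.2 times higher (1787 against 153 on average). Ramp3, a partner of the adrenomedullin receptor, was 14.9 times higher, the endothelin receptor gene Ednrb 12.2 times and Rgcc 8.18 times. Bmp6, a secreted bone morphogenetic protein, averaged 427 against 10.5 and was found in 106 cells (61.6%) against 4.11%. The surface glycoprotein gene Cd24a averaged 1280.0 against 47.7 and was found in 148 cells (86.1%) against 16.1%.

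Most barrier genes were low, and 12 of the 20 on the list were at or below 0.5 times in all 6 libraries, with none at least 2 times higher. Cldn5, the main claudin of brain capillary junctions (chromosome 16, 18776847-18778262, GRCm38), averaged 142 CPM in the 6 libraries against 2956 in other endothelial cells, a median ratio of 0.0488. Its level in the fenestrated cells was 188, 60.6 and 212 in sham + WT, 106 and 101 in MCAO/R + WT, 383, 223 and 60.8 in MCAO/R + Lrg1-/-, and 231, 3499 and 0 in sham + Lrg1-/- mice. Cldn5 was 1 of the 6 genes that chose the other endothelial cells, though not the fenestrated ones, which favours a high level there. None of the other barrier genes named here was used to choose either population. The one library that stood apart in Cldn5, sham + Lrg1-/- replicate 2, had 4 fenestrated cells. The organic anion transporter genes Slco1a4 and Slco1c1 averaged 115 and 53.9 against 1404 and 750.0, and Mfsd2a, the transporter of omega-3 lipids, 5.28 against 113. Of the Wnt-related genes, Lef1 was found in 35 cells (20.3%) against 59.9%, Foxq1 in 23 (13.4%) against 51.9%, and Apcdd1 had a median ratio of 0.0248. Not every barrier gene followed. The efflux transporter gene Abcg2 was found in 73.3% of the fenestrated cells against 67.5% and Itm2a in 78.5% against 71.9%, and Abcg2 stood at 716 and 561 CPM against 449 and 472 in the MCAO/R + WT libraries.

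Gene lists gave the same division, with sums compared within each library. The 12 genes of fenestrated and peripheral capillaries outside the rule summed to 4748 to 15790 CPM in the fenestrated cells and 808 to 1843 in the others, higher in 11 of 11 libraries. Of its 9 genes at this level, 8 were at least 2 times higher in all 6 libraries and Vwa1, a matrix protein gene, was lower (median ratio 0.289), while Cd36 was found in 4.65% of cells against 4.50%. The 20 genes of barrier transport and Wnt-dependent barrier identity summed to 1101 to 8625 against 4767 to 14920, lower in 11 of 11. MHC class I presentation (3613 to 11780 against 1353 to 4959), caveolae (1337 to 3391 against 943 to 1525) and tip cell genes (1145 to 3628 against 793 to 1629) were higher in 11 of 11, and VEGF and TGF-beta receptors and basement membrane in 10 of 11. Of the first 3 lists, 0 of 10, 1 of 9 and 1 of 8 genes at this level were at least 2 times higher in all 6 libraries. The tip cell list includes the basement membrane genes Col4a1, Col4a2, Nid1 and Nid2. Its genes Apln, Adm and Cxcr4 were detected in 2.33%, 5.81% and 1.74% of fenestrated cells against 4.59%, 16.7% and 3.68% of the others. The remaining genes of that list were detected in a larger share of the fenestrated cells. Pan-endothelial genes were higher in 7 of 11, artery genes in 3, junction genes in 1 and vein genes in 1. The pan-endothelial, receptor and junction lists held genes that chose the cells. Over the 6, 15 and 10 tested genes of these lists that chose neither population, the sum was higher in 11, 11 and 2 of 11 libraries. The 5 lymphatic genes summed to 0 to 60.8 CPM against 26.0 to 69.6, with Prox1 in 12 of the 172 cells, Pdpn in 8 and Lyve1, Mmrn1 and Ccl21a in none.

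**Figure D2:**
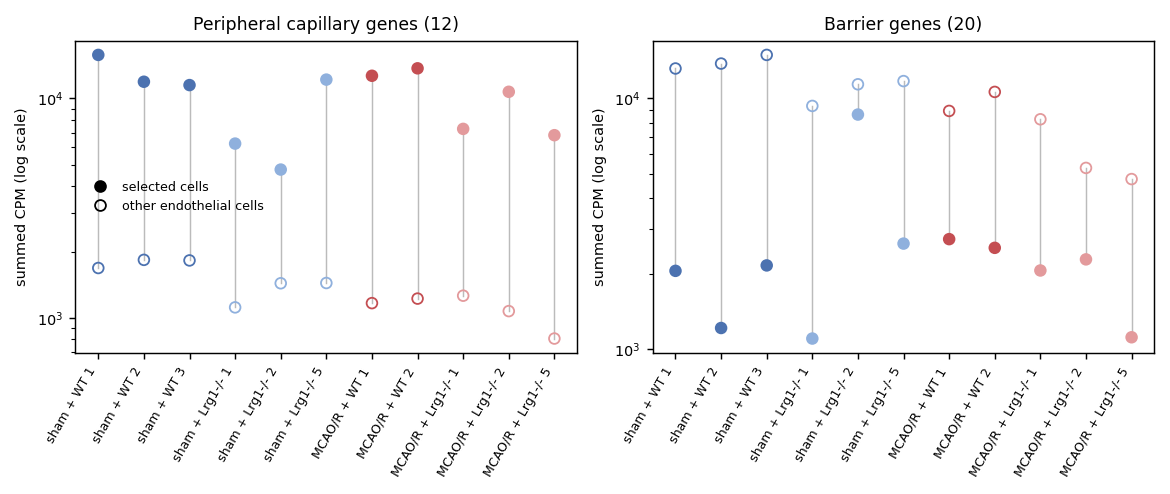
Summed CPM of 12 peripheral capillary genes outside the rule (left) and 20 barrier genes (right) in the selected fenestrated cells (filled) and in other endothelial cells (open) of each of the 11 libraries, on log axes, a line joining the pair of 1 library. Peripheral capillary genes were higher and barrier genes lower in the fenestrated cells of every library, with the smallest barrier gap in sham + Lrg1-/- replicate 2.

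**Figure D3:**
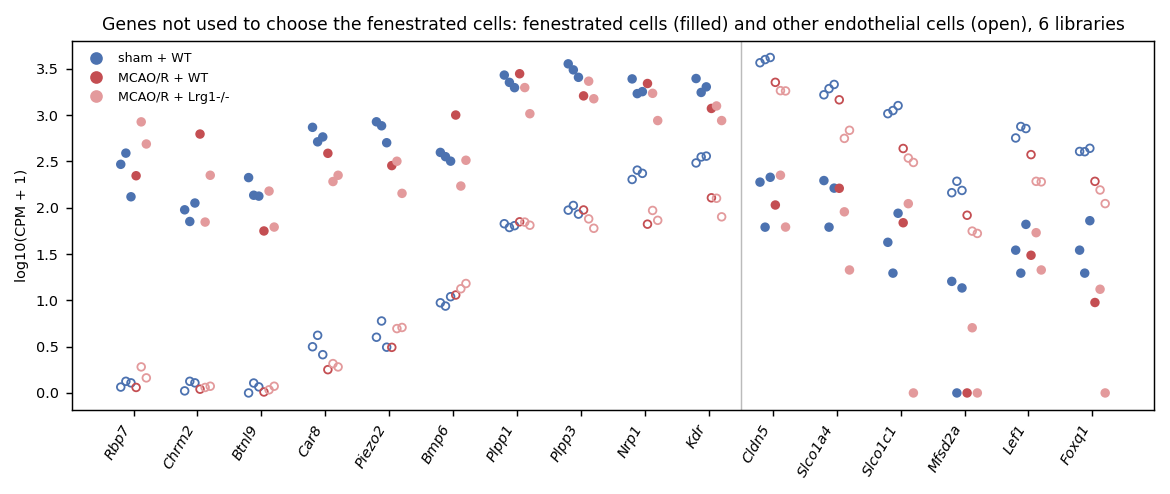
Level of 16 genes not used to choose the fenestrated cells (Cldn5 was among the genes that chose the others), as log10 of CPM plus 1, in fenestrated (filled) and other endothelial cells (open) of the 6 libraries with at least 10 fenestrated cells, coloured by group. The 10 genes at left, from Rbp7 to Kdr, were higher and the 6 at right, from Cldn5 to Foxq1, lower in the fenestrated cells of each library.

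Transcripts of neighbouring cell types were present to differing degrees. Choroid plexus epithelial genes, of which Ttr (transthyretin) is by far the most abundant, summed to 383, 634 and 16820 CPM in the fenestrated cells of sham + WT mice, 88300, 26290 and 2718 in sham + Lrg1-/- mice, 475 and 259 in MCAO/R + WT, and 3062, 95100 and 15300 in MCAO/R + Lrg1-/- mice. Haemoglobin genes summed to 56.3, 23.3 and 2471 in sham + WT, 1410, 34990 and 2882 in sham + Lrg1-/-, 50.8 and 14.4 in MCAO/R + WT, and 1603, 18480 and 35310 in MCAO/R + Lrg1-/- mice. At least 3 of 6 ependymal or 3 of 7 choroid epithelial genes were carried by 13 of the 172 cells, and 15 had a doublet score in the top 6% of their library, among them 4 of the 8 cells of sham + Lrg1-/- replicate 1. The microglial sum was below that of the other endothelial cells in 11 of 11 libraries. The mural sum was 82.4 to 2925 except for 7489 in MCAO/R + Lrg1-/- replicate 1, and Rgs5 and Acta2, mural genes that the rule did not use, were detected in 38 (22.1%) and 69 (40.1%) of the 172 cells against 16.1% and 44.2% of the other endothelial cells.

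The 6 genes of the rule differed among themselves across the conditions, which is described without a test. Plvap (chromosome 8, 71497765-71511752, minus strand, ENSMUSG00000034845) stood at 3354, 2706 and 2926 CPM in sham + WT and 2656 and 3138 in MCAO/R + WT mice. It stood at 892, 689 and 2059 in sham + Lrg1-/- and 1101, 1330.0 and 892 in MCAO/R + Lrg1-/- mice, so every Lrg1-/- library was below every WT library. Esm1, which encodes the VEGF-induced proteoglycan endocan, was 935, 709 and 789 in sham + WT and 220.3 and 173 in MCAO/R + WT mice, without overlap, and 215, 483 and 466 in MCAO/R + Lrg1-/- mice. Igfbp3, an insulin-like growth factor binding protein, went the other way, with 1660.0, 1600.0 and 1377 in sham + WT against 3656 and 2764 in MCAO/R + WT mice. Cd300lg, an endothelial mucin-like receptor, was 556, 480.5 and 395 in sham + WT and 970.1 and 1252 in MCAO/R + WT mice. Gpihbp1, which carries lipoprotein lipase to the capillary lumen, and Col13a1, a transmembrane collagen, overlapped between these groups.

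In WT mice, 7 of 11 glucocorticoid-responsive and metallothionein genes tested were higher in the fenestrated cells after MCAO/R, with Fkbp5 the clearest. That list was drawn up with earlier results of these data known, so its count is a description and no test of the set. Single genes outside that list, such as Lpl, Ucp2, Xdh and Lrg1, were also higher, and Ccnd1, Nes and Sox4 were among those lower. Fenestrated cells were summed per mouse and tested across 6549 genes in the 6 libraries with at least 10 of them: 3 sham + WT, MCAO/R + WT replicate 1, and MCAO/R + Lrg1-/- replicates 2 and 5. Of these genes 76 (1.16%) were higher and 17 (0.26%) lower after MCAO/R (edgeR quasi-likelihood test, Benjamini-Hochberg adjusted p under 0.05 and a natural-log fold change over 0.25). The single MCAO/R + WT library was assumed to vary like the other groups, with 3 residual degrees of freedom. MCAO/R + WT replicate 2, whose 7 cells kept it out of this test, lay above all 3 sham + WT libraries for 60 of the 76 genes (78.9%, against 33.7% of all genes tested) and below them for 17 of the 17 (100%, against 36.7%). With replicate 2 in place of replicate 1, in a fit of the libraries with at least 5 fenestrated cells, 43 genes were called, 20 of them among the 93. Without the cells of high doublet score 48 genes were called, 47 of them among the 93. The values that follow include the libraries outside the test. In the tested libraries all 93 called genes were without overlap between the WT groups, so a lack of overlap there adds nothing to a call.

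Fkbp5, a co-chaperone that restrains the glucocorticoid receptor and is itself induced by it (chromosome 17, 28399094-28517527, minus strand, ENSMUSG00000024222), had the clearest change. It stood at 15.02, 4.67 and 12.6 CPM in sham + WT, 813 and 1080.0 in MCAO/R + WT and 311, 174 and 162 in MCAO/R + Lrg1-/- mice. All MCAO/R libraries were above all sham libraries, and it rose by 6.09 ± 0.39 on the log2 scale (SE, edgeR quasi-likelihood adjusted p = 3.29e-07). It was seen in 21 of 22 cells of MCAO/R + WT replicate 1 and in 7 of 7 of replicate 2. With replicate 2 in place of replicate 1 the change was 6.34 (edgeR adjusted p = 2.11e-06).

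Tsc22d3, which encodes the glucocorticoid-induced leucine zipper GILZ, was 233, 177 and 244 CPM in sham + WT and 788 and 993 in MCAO/R + WT mice, a log2 change of 1.84 ± 0.31 (edgeR adjusted p = 0.00441). Zbtb16, a zinc-finger regulator induced by steroids, was 71.4, 4.67 and 8.40 in sham + WT and 597 and 633 in MCAO/R + WT mice, a change of 4.48 ± 0.66 (edgeR adjusted p = 0.00147). Both genes were without overlap between the WT groups, as was the metal-binding metallothionein gene Mt1, with 86.4, 65.3 and 60.9 against 877 and 346 (3.64 ± 0.30, edgeR adjusted p = 5.97e-06). In MCAO/R + WT replicate 1, however, 61.4% of the Mt1 UMIs came from 1 of the 22 cells, while the largest cell held 21.5% for Tsc22d3 and 36.2% for Zbtb16. Sult1a1, a sulfotransferase, was 56.3, 60.6 and 46.2 in sham + WT against 322 and 359.9 in MCAO/R + WT mice (edgeR adjusted p = 0.000976). Of the 11 glucocorticoid-responsive and metallothionein genes tested, 7 rose and none fell, with a median log2 change of 2.58 against -0.04 over all genes. The 7 were Fkbp5, Tsc22d3, Zbtb16, Mt1, Mt2, Sult1a1 and Lcn2, and Lcn2 is counted again on the acute phase list below. With replicate 2 in place of replicate 1, Mt2 dropped from 5.05 to 1.18 and was not called (edgeR adjusted p = 0.751), nor was Lcn2, which stood at 4.95 against 6.24 (edgeR adjusted p = 0.15), and the other 5 were.

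Lpl, lipoprotein lipase (chromosome 8, 68880491-68907448, GRCm38), which frees fatty acids from circulating lipoproteins, was 56.3, 9.33 and 33.6 CPM in sham + WT and 606 and 475 in MCAO/R + WT mice. It rose by 4.13 ± 0.43 (edgeR adjusted p = 6.92e-05) and was seen in 17 of 22 and 7 of 7 cells of the MCAO/R + WT libraries. The mitochondrial carrier gene Ucp2 was 101, 69.97 and 46.2 in sham + WT against 856 and 691 in MCAO/R + WT mice (3.60 ± 0.35, edgeR adjusted p = 3.78e-05). Xdh, which encodes xanthine dehydrogenase of purine breakdown, was 139, 126 and 147 against 924 and 1180.0 (2.74 ± 0.40, edgeR adjusted p = 0.00142). Neither gene overlapped between the WT groups. Of the 6 lipid-handling genes tested, Lpl was the one called, and the median change of the list was 1.96.

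Kalrn, a guanine nucleotide exchange factor, was 101, 117 and 143 CPM in sham + WT and 729 and 806 in MCAO/R + WT mice (edgeR adjusted p = 0.00018). Slc3a2, the heavy chain of large neutral amino acid transporters, was 139, 131 and 195 against 652 and 749 (2.04 ± 0.30, edgeR adjusted p = 0.00155), the one gene called of 15 barrier genes tested. Txnip, which binds thioredoxin and limits glucose uptake, was 458, 476 and 346 against 1275 and 1483 (1.59 ± 0.28, edgeR adjusted p = 0.006995). Doc2b, a calcium sensor of vesicle release, was 3.76, 0 and 2.10 against 123 and 158. These 4 genes were without overlap. Chrm2, the muscarinic receptor gene that sets these cells apart, was 93.9, 69.97 and 111 against 623 and 461 (2.72 ± 0.37, edgeR adjusted p = 0.000815). Bmp6 was 394, 354 and 317 against 999.8 and 461, called in the test (1.498 ± 0.29, edgeR adjusted p = 0.0146) but 0.23 with replicate 2 in place of replicate 1 (edgeR adjusted p = 0.825), where Chrm2 at 2.14 and Doc2b at 5.73 fell just short (edgeR adjusted p = 0.0584 for both).

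Lrg1 itself (chromosome 17, 56119678-56122001, minus strand, ENSMUSG00000037095) rose in the fenestrated cells of WT mice. It was 30.1, 4.67 and 33.6 CPM in sham + WT (8, 1 and 16 UMIs) and 216 and 346 in MCAO/R + WT mice (51 and 24 UMIs), with 0 in every Lrg1-/- library. The change was 3.08 ± 0.53 (edgeR adjusted p = 0.00659), and the transcript was seen in 14 of 22 and 5 of 7 cells. Of 16 acute phase and cytokine response genes tested, 3 rose (Lrg1, Lcn2 and Serpina3n) and none fell. Lcn2, an iron-siderophore binding protein, was 0, 4.67 and 0 against 119 and 57.6 (edgeR adjusted p = 0.000559), and Serpina3n was at 0 in all sham libraries against 123 and 14.4, its UMIs in replicate 1 coming from 1 cell. Of the 3, Lrg1 alone was called with replicate 2 in place of replicate 1 (edgeR adjusted p = 0.0231, with 0.475 for Serpina3n at a change of 4.42).

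**Figure D4:**
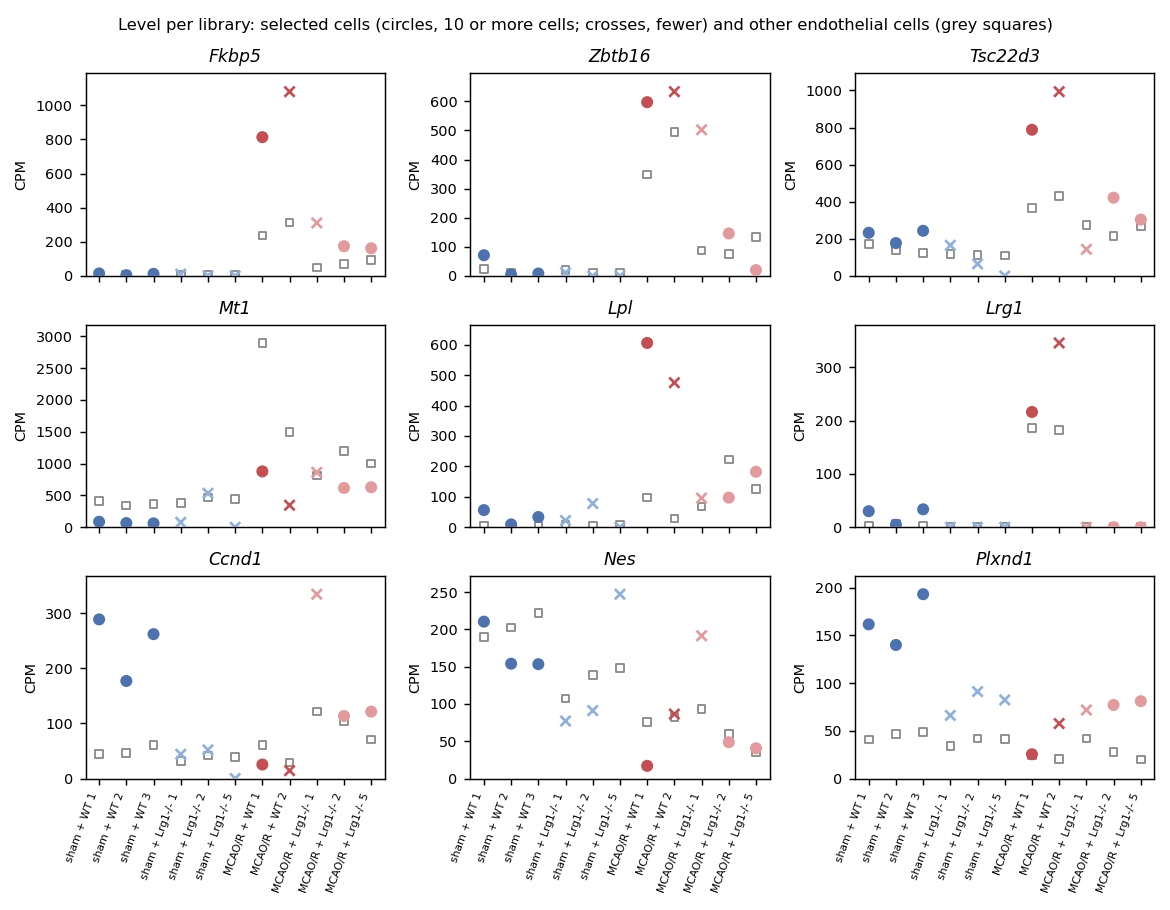
CPM of 9 genes in each of the 11 libraries: circles, fenestrated cells of libraries with 10 or more of them; crosses, those with fewer; grey squares, other endothelial cells. Fkbp5, Zbtb16, Tsc22d3, Mt1, Lpl and Lrg1 were higher and Ccnd1, Nes and Plxnd1 lower in the fenestrated cells of both MCAO/R + WT mice than in those of the 3 sham + WT mice.

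Among the genes that fell, Ccnd1, cyclin D1 (chromosome 7, 144929931-144939925, GRCm38), was 289, 177 and 262 CPM in sham + WT and 25.4 and 14.4 in MCAO/R + WT mice, a fall without overlap (-3.24 ± 0.54, edgeR adjusted p = 0.00383). With replicate 2 in place of replicate 1 it was -4.17 (edgeR adjusted p = 0.0352). Nes, the intermediate filament nestin, was 210.3, 154 and 153 against 16.9 and 86.4 (-3.30 ± 0.60, edgeR adjusted p = 0.0074). Sox4, a transcription factor of immature cells, was 210.3, 257 and 159.5 against 21.2 and 43.2 (-3.25 ± 0.63, edgeR adjusted p = 0.0129). Plxnd1, a semaphorin receptor of vessels, was 162, 139.9 and 193 against 25.4 and 57.6 (-2.69 ± 0.54, edgeR adjusted p = 0.0169). None of the 3 overlapped between the WT groups, but with replicate 2 in place of replicate 1 none was called, with Nes at -1.14 (edgeR adjusted p = 0.477), Plxnd1 at -1.67 (edgeR adjusted p = 0.333) and Sox4 at -2.38 (edgeR adjusted p = 0.245). Col15a1, a collagen of basement membranes, was 368, 173 and 191 against 29.6 and 129.6 (edgeR adjusted p = 0.0254), the one gene called of 11 peripheral capillary genes tested. Atf3, an immediate early transcription factor, was 1198, 1320.0 and 1341 against 466 and 576 (-1.46 ± 0.33, edgeR adjusted p = 0.036), the one called of 17 immediate early genes, and the growth factor gene Hbegf was 259, 205 and 204 against 55.1 and 43.2 (edgeR adjusted p = 0.0489). With replicate 2 in place of replicate 1 these calls too were lost. Col15a1 then went from -3.01 to -1.05 (edgeR adjusted p = 0.558), while Atf3 at -1.31 (edgeR adjusted p = 0.14) and Hbegf at -2.49 (edgeR adjusted p = 0.152) were about as far below sham or further. The remaining called falls of the largest size were in Slit3, Ces2e, Rapgef1 and Tmtc2, with Slit3 at 97.7, 168 and 52.5 in sham + WT and 0 in both MCAO/R + WT libraries.

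Many other groups gave no call in this comparison. No gene was called among 16 receptors and mediators of VEGF, angiopoietin and TGF-beta signalling (median log2 change -0.05), 10 pan-endothelial, 10 tip cell (-0.74), 12 junction, 9 caveolar, 7 leukocyte adhesion, 16 interferon-stimulated (-0.63), 12 MHC class I (-0.11), 12 heat shock (-0.88), 11 hypoxia and glycolysis (-0.43), 8 coagulation or 2 proliferation genes tested. Over all genes 683 had an unadjusted p under 0.05, and DESeq2 made 54 calls in all. Kdr was 2479, 1754 and 2015 CPM in sham + WT and 1178 and 806 in MCAO/R + WT mice, without overlap but short of the threshold (-0.82 ± 0.36, edgeR adjusted p = 0.427).

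Some of the largest fitted rises rested on few cells. In MCAO/R + WT replicate 1, 22 of the 76 raised genes took at least 50% of their UMIs from 1 of the 22 cells. One cell carried all 6 ependymal genes of its list, and all UMIs of S100a4 and Cfap299, 92.0% of those of Gfap and 97.8% of those of Nnat came from 1 cell each. S100a4 and S100a6, both calcium-binding proteins, were 170 and 445 CPM there and 0 in replicate 2. Spp1, osteopontin, was 0 in all sham libraries, 123 and 0 in the MCAO/R + WT libraries and 71.8, 1217 and 1479 in the MCAO/R + Lrg1-/- libraries, and in the other endothelial cells it stood at 488, 25.6, 368, 4366 and 2145 in the same 5 libraries.

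**Figure D5:**
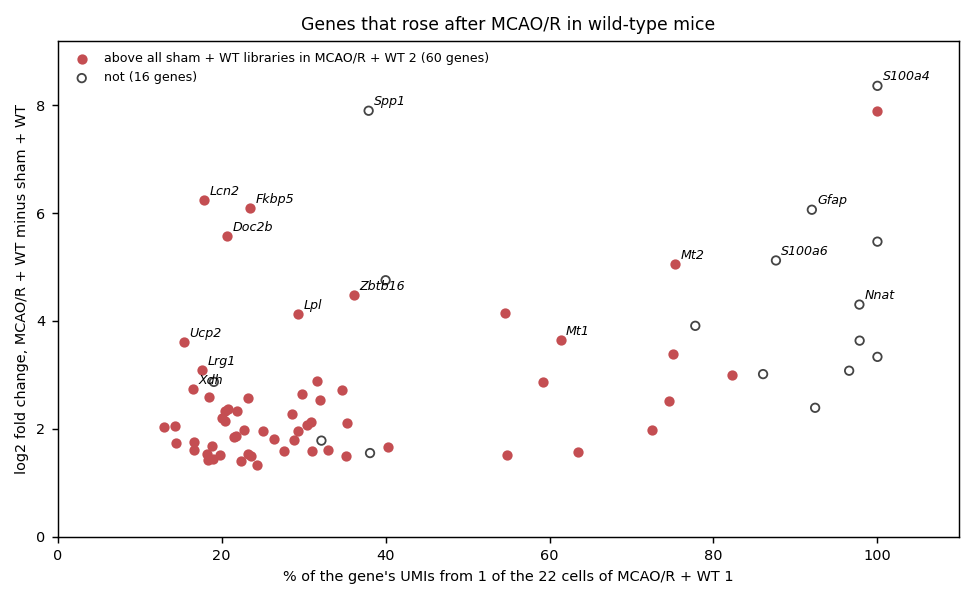
For each of the 76 genes that rose after MCAO/R in WT mice, the log2 fold change against the percentage of its UMIs in MCAO/R + WT replicate 1 that came from 1 of the 22 fenestrated cells; filled points lay above all sham + WT libraries in replicate 2 as well (60 genes), open points did not (16 genes). Fkbp5, Lpl, Ucp2, Xdh and Lrg1 lie at the left, S100a4, Gfap, S100a6 and Nnat at the right, open.

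The response of the fenestrated cells was set against that of the other endothelial cells of the same mice, and part of it differed. In this test and in that of the genotypes below, MCAO/R + WT was again 1 library. The spread was taken almost wholly over all genes together, so small p-values there do not measure the spread of a gene between mice. A test of the difference of responses (fenestrated minus other endothelial cells, each mouse contributing both populations, 17075 genes) called 135 genes (0.791%) higher and 128 (0.75%) lower. Of the genes tested, 10526 passed the filter on low counts only with the other endothelial cells included, and 21 of the higher and 4 of the lower calls were among them. Over the 6549 genes that passed in the fenestrated cells alone, 142 were called higher and 169 lower. Of the 93 genes called in the fenestrated cells, 37 were also called in this test with the same sign and 1 with the opposite sign. The median over all genes was -0.20, and 172 genes were called without sham + WT replicate 1, 169 without replicate 3 and 59 with MCAO/R + WT replicate 2 in place of replicate 1. For the glucocorticoid and metallothionein list, 0 of 12 genes were called by the edgeR quasi-likelihood test of the difference, in which 1469 of all genes had an unadjusted p under 0.05 and DESeq2 called 101. Fkbp5 rose in the other endothelial cells too, from 6.78, 5.77 and 5.75 to 238 and 313 CPM, and its response differed by 0.79 (edgeR adjusted p = 0.84).

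Genes whose response differed were of several kinds. Kalrn rose in the fenestrated cells while the other endothelial cells stood at 92.8, 106 and 108 CPM in sham + WT and 94.5 and 114 in MCAO/R + WT mice, a difference of 2.63 ± 0.40 (edgeR adjusted p = 5.51e-08). Angpt2, the angiopoietin that destabilises vessels (chromosome 8, 18690263-18741562, GRCm38), was 71.4, 42.0 and 56.7 in the fenestrated cells of sham + WT and 8.47 (2 UMIs) and 0 of MCAO/R + WT mice, against 9.46, 12.2 and 9.94 and then 67.1 and 34.5 in the other endothelial cells. In these counts the 2 populations stood in opposite order in the 2 conditions, a difference of -5.52 ± 0.86 (edgeR adjusted p = 1.45e-07). The order after MCAO/R rests on 2 UMIs in replicate 1 and on 0 among the 69466 UMIs of the fenestrated cells of replicate 2. Lrg1 also rose by more in the other endothelial cells, from 3.21, 6.61 and 2.98 to 186 and 182, a difference of -2.57 ± 0.60 (edgeR adjusted p = 0.00282) that was not called with replicate 2 in place of replicate 1 (-2.05, edgeR adjusted p = 0.225). Slc3a2 rose by more in the fenestrated cells (1.54 ± 0.37, edgeR adjusted p = 0.00442), since the others stood at 404 to 451 in sham + WT and 584 and 519 in MCAO/R + WT mice.

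For another set the other endothelial cells had lower levels after MCAO/R while the values of the fenestrated cells overlapped between the conditions. Nrp1 was 2456, 1703 and 1789 CPM in the fenestrated cells of sham + WT and 2190.0 and 2260.0 of MCAO/R + WT mice, but 201, 253 and 234 and then 65.4 and 68.0 in the others (difference 1.89 ± 0.35, edgeR adjusted p = 3.49e-05). Cxcl12, a chemokine, was 473, 285 and 374 and then 402 and 547 in the fenestrated cells, but 1341, 1418 and 1562 and then 224 and 319.8 in the others (2.72 ± 0.38, edgeR adjusted p = 1.4e-09). The membrane protein gene Itm2a was 657, 396 and 458 and then 322 and 547 in the fenestrated cells, but 2707, 2441 and 2777 and then 329.5 and 493 in the others (2.31 ± 0.38, edgeR adjusted p = 9.44e-07). In all 3 genes the values of the other endothelial cells did not overlap between the conditions. These calls and that of Angpt2 held with replicate 2 in place of replicate 1, where the adjusted p (edgeR) was 0.00954 for Nrp1, 0.00012 for Cxcl12, 0.000457 for Itm2a and 0.0197 for Angpt2. Abcg2 and Spock2, both barrier genes, were called in the same direction, which made 4 of 20 barrier genes higher with Itm2a and Slc3a2, and Ehd4, a membrane-trafficking gene, was called lower (-1.72, edgeR adjusted p = 0.000408).

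After MCAO/R, Bmpr2, Cyp26b1, Cxcl12, Prex2 and some stroke-raised genes, such as Fkbp5 and Kalrn, were lower in the fenestrated cells of Lrg1-/- mice than in those of WT mice. Some transcripts of other cell types were higher, and of these the haemoglobin and choroid plexus epithelial sums were higher in the other endothelial cells too. MCAO/R + Lrg1-/- replicates 2 and 5 were compared with MCAO/R + WT replicate 1, and 60 of 6549 genes (0.916%) were higher and 80 (1.22%) lower (edgeR quasi-likelihood). Xist and Ddx3y set replicate 2 apart from the other libraries of the test, so that genotype and sex cannot be told apart in that library. Xist was itself 1 of the 60 genes called higher, although over all retained cells it was at 476 CPM in replicate 2 and 0.338 in replicate 5. Age, supplier and substrain, which the methods give differently for the genotypes, cannot be told apart from genotype in any library. Both contrasts rest on the same MCAO/R + WT library, so their calls are not independent. In the tested libraries 139 of the 140 called genes did not overlap between the genotypes, so a lack of overlap there adds little to a call. Outside the test, MCAO/R + WT replicate 2 went with the call for 87.5% of the 80 lower genes, against 42% of all genes tested. For MCAO/R + Lrg1-/- replicate 1 this was 88.8% against 53.6%. Without the 15 cells of high doublet score no gene was called (edgeR, 1039 at an unadjusted p under 0.05), and DESeq2 made 135 calls on all cells. The 140 genes kept their sign without those cells, with a median absolute log2 change of 2.24 against 2.25. This is no separate support, since the genes were chosen in the same libraries and few cells were removed. The score took 0 of 22 cells from MCAO/R + WT replicate 1, and 3 of 23 and 3 of 16 from MCAO/R + Lrg1-/- replicates 2 and 5. Leaving out MCAO/R + Lrg1-/- replicate 2 gave 85 calls, leaving out sham + WT replicate 2 gave 317, and MCAO/R + WT replicate 2 in place of replicate 1 gave 45, of which 33 were among the 140.

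The part of the lowered genes that concerns receptors and signals was small. Bmpr2, the type II receptor for bone morphogenetic proteins, was 1275 and 1569 CPM in MCAO/R + WT and 861, 272 and 263 in MCAO/R + Lrg1-/- mice (-2.09 ± 0.34, edgeR adjusted p = 0.00941). Eng, endoglin, a TGF-beta co-receptor through which LRG1 protein is known to act, was 894 and 763 against 455, 284 and 182 (-1.67 ± 0.37, edgeR adjusted p = 0.0286). Bmp6 was 999.8 and 461 against 168, 170.3 and 324 (-2.05 ± 0.36, edgeR adjusted p = 0.0108). The groups did not overlap in any of the 3 genes. With MCAO/R + WT replicate 2 in place of replicate 1, Bmpr2 was -2.26 and called (edgeR adjusted p = 0.014), whereas Eng at -1.31 (edgeR adjusted p = 0.128) and Bmp6 at -0.80 (edgeR adjusted p = 0.35) were not. Of 16 VEGF, angiopoietin and TGF-beta receptors and mediators tested, Bmpr2 and Eng were the 2 called, with a median of -0.68 against 0.02 over all genes. The 10 pan-endothelial genes tested had a median of -0.70, with Eng the one called, and these 10 genes, which leave out Pecam1 and Cdh5, summed to 12810 and 16790 CPM in MCAO/R + WT and 7943, 8736 and 4538 in MCAO/R + Lrg1-/- mice. The part of that difference in the receptor values was not tested. For comparison, the sham groups stood at 920.1, 699.7 and 819 in WT and 209, 377 and 494 in Lrg1-/- mice for Bmpr2 and at 1029, 812 and 1031 against 539.7, 585 and 906 for Eng, with at most 8 cells in a sham + Lrg1-/- library and no test.

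Cyp26b1 was 309 and 359.9 CPM in MCAO/R + WT and 23.9, 16.2 and 20.3 in MCAO/R + Lrg1-/- mice (-3.97 ± 0.67, edgeR adjusted p = 0.00945). Its sham levels were 237, 606 and 384 in WT and 44.0, 221 and 82.3 in Lrg1-/- mice, so that every measured Lrg1-/- value lay below every WT value. Most of these low values rest on few UMIs, since the fenestrated cells of the MCAO/R + Lrg1-/- libraries held 41796, 246554 and 49357 UMIs in all. In sham + Lrg1-/- replicate 5, with 12143 UMIs in 2 cells, the separation is not firm. Cxcl12 was 402 and 547 against 168, 69.0 and 0 after MCAO/R (-2.71 ± 0.55, edgeR adjusted p = 0.0216), and Prex2, a Rac exchange factor, 699 and 777 against 383, 89.2 and 142 (-2.60 ± 0.39, edgeR adjusted p = 0.00941). Stat3, the transcription factor of cytokine signalling, was 813 and 590.2 against 311, 231 and 344 (-1.45 ± 0.33, edgeR adjusted p = 0.0357). In each of these genes the 2 genotypes did not overlap after MCAO/R. With MCAO/R + WT replicate 2 in place of replicate 1, Cyp26b1, Cxcl12 and Prex2 were called, but Stat3 was -0.86 (edgeR adjusted p = 0.25), and Stat3 lost its call in 9 of 19 alternatives. Of the other large called falls, Mgp, a matrix protein that binds bone morphogenetic proteins, was 356 and 0 against 168, 24.3 and 40.5, so the second WT mouse did not share it. Gm3336, Dnah12, Nnat, Gvin1, Lrrc28, Zswim4 and Asb4 were also called lower.

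Several genes that had risen in WT mice were lower in Lrg1-/- mice. Fkbp5 was lower by -2.09 ± 0.37 (edgeR adjusted p = 0.0108), Lpl by -2.17 ± 0.49 (edgeR adjusted p = 0.0352), Kalrn by -2.01 ± 0.36 (edgeR adjusted p = 0.0112) and Txnip by -1.75 ± 0.33 (edgeR adjusted p = 0.0135). Chrm2 was 623 and 461 CPM against 191, 69.0 and 223 (edgeR adjusted p = 0.018). With MCAO/R + WT replicate 2 in place of replicate 1, Fkbp5, Kalrn and Txnip were called, and Lpl at -1.68 (edgeR adjusted p = 0.188) and Chrm2 at -1.77 (edgeR adjusted p = 0.135) were not. Tsc22d3, with 788 and 993 against 144, 422 and 304, was without overlap but was not called (-0.90, edgeR adjusted p = 0.184), nor was Zbtb16, with 597 and 633 against 502, 146 and 20.3 (-2.23, edgeR adjusted p = 0.106). Of the 11 glucocorticoid and metallothionein genes, Fkbp5 was the one called, with a median of -0.88. Lrg1, the deleted gene, was at 0 in the Lrg1-/- libraries (edgeR adjusted p = 0.00941).

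The difference between the genotypes was compared with that in the other endothelial cells, and 85 genes (0.498%) were called higher and 85 (0.498%) lower. Of the 140 genes called in the fenestrated cells, 55 were also called here with the same sign. Lpl stood at 606 and 475 against 95.7, 97.3 and 182 CPM in the fenestrated cells, but at 97.9 and 28.8 against 68.3, 222 and 127 in the other endothelial cells, a difference of -3.37 ± 0.48 (edgeR adjusted p = 3.54e-09). Bmp6 differed by -2.64 (edgeR adjusted p = 7.59e-07), Cxcl12 by -2.55 (edgeR adjusted p = 7.72e-05), Prex2 by -1.88 (edgeR adjusted p = 0.00509) and Bmpr2 by -1.43 (edgeR adjusted p = 0.04). Eng fell short (-1.27, edgeR adjusted p = 0.125). The call for Bmpr2 did not hold in 8 of 19 alternatives, and that for Prex2 in 2 of 19. The calls for Lpl, Bmp6 and Cxcl12 held with MCAO/R + WT replicate 2 in place of replicate 1 (edgeR adjusted p = 3.16e-11, 0.0193 and 0.0153).

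Of the 60 genes higher in MCAO/R + Lrg1-/- mice, at least 16 were on the lists of other cell types, and others, such as Cst3, Ctsb, Calr and Ftl1, are broadly expressed. Called were 4 of 5 haemoglobin genes (median 8.98), 4 of 11 microglia and macrophage genes (2.06), 4 of 7 oligodendrocyte genes (2.77), 2 of 2 neutrophil genes and 2 of 11 choroid plexus epithelial genes (6.21). The mitochondrial genes mt-Nd1 (1.84) and mt-Co3 (1.93) were also called higher. The median fenestrated cell held 2.46% and 4.47% mitochondrial UMIs and 2503 and 1596 genes in MCAO/R + Lrg1-/- replicates 2 and 5, against 1.93% and 3054 genes in MCAO/R + WT replicate 1, and the part of cell quality in these calls was not tested. Among the named ones, Folr1, a folate receptor of choroid plexus epithelium, was higher by 8.93, Ermn and Mag of oligodendrocytes by 7.91 and 4.40, S100a8 of neutrophils by 5.15 and the microglial complement gene C1qb by 2.06. With MCAO/R + WT replicate 2 in place of replicate 1, of these C1qb alone was called, and Ermn was 3.15 and Mag 2.07. Slc4a10, Trpm3, Igfbp2, Erbb4, Coro1a and Trf completed the largest rises. In the other endothelial cells, haemoglobin genes summed to 458 to 1137 CPM in MCAO/R + WT and 30900 to 63070 in MCAO/R + Lrg1-/- mice. Choroid plexus epithelial genes summed there to 1109 to 3201 and 15130 to 41410. Oligodendrocyte genes went the other way there, at 7444 to 16430 and 2193 to 6192, and the microglial and neutrophil sums overlapped. In MCAO/R + Lrg1-/- replicate 2, 32 of the 60 higher genes took at least 50% of their UMIs from 1 of its 23 cells, as did Ermn with 100%, Trpm3 with 90.8% and Folr1 with 75.0%. The summed levels of these cell types in the fenestrated cells are given above, and without the 13 cells that carried ependymal or epithelial genes 44 genes were called, 40 of them among the 140. Ccl2, a monocyte chemokine, was the one acute phase and cytokine gene called higher (3.14 ± 0.72, edgeR adjusted p = 0.0366), but it was 0.78 without the cells of high doublet score.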

How the data were processed

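The authors aligned 10x Genomics 3′ reads with Cell Ranger (7.0.1 per the matrix headers, whereas the study's methods name an earlier version; STAR and mm10 are named in the submitters' processing notes) and deposited, per library, a matrix of UMI counts per gene and barcode, with no cell annotation. Each of the 11 libraries is 1 mouse right brain. From these counts, cells were kept at more than 500 genes, more than 1000 UMIs and under 25% mitochondrial UMIs, which left 132437 of 155804 barcodes. Fenestrated endothelial cells and other endothelial cells were then chosen by the genes given above. The cells, gene lists and tests were chosen with earlier results of these data known. No doublet caller was at hand, so doublets were scored by the share of simulated doublets among a cell's nearest neighbours, and removing the top 6% per library was an alternative.

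Levels (CPM) are counts per 1000000 UMIs summed over a population in a library. Summed counts were tested by edgeR 4.0.16 quasi-likelihood (R 4.3.3, TMM, filterByExpr) in libraries with at least 10 fenestrated cells (12143 to 476343 UMIs per library over all 11), with Benjamini-Hochberg adjusted p under 0.05 and an absolute natural-log fold change over 0.25 as a call. The 15 genes of the rule were left out of the counts of calls. Each SE printed was calculated back from the log2 fold change and the F statistic of the edgeR test, and is approximate. Differences from other endothelial cells were tested with mouse as a block, within WT mice or within MCAO/R, since no sham + Lrg1-/- library had 10 fenestrated cells. That choice was made after seeing the data. The tests were tested on simulated data first. Named genes were up to 10 of the largest called rises and falls per contrast without overlap between the groups, genes of the lists, the rule's own genes and Lrg1, and others named (Ucp2, Xdh, Kalrn, Chrm2, Bmp6, Txnip, Doc2b, Prex2 and the genes that set the cells apart) were chosen after their values were seen. DESeq2 1.42.0, other size factors, filters, cell minimums and thinning were alternatives. Coordinates are those of GENCODE M21 on GRCm38. Python 3.11.15 with numpy 2.4.6, pandas 2.3.3, scipy 1.17.1 and scikit-learn 1.9.0 was used.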

Additional observations from a re-analysis of the deposited data

Results flagged for a closer look

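The genes below changed differently in the fenestrated and the other endothelial cells by the edgeR quasi-likelihood test of the difference, and each value is that difference on the log2 scale. For the response to MCAO/R in WT mice, the difference was -3.59 for Ccnd1, -3.53 for Sox4, -2.85 for Col15a1, -2.10 for Rapgef1 and -2.57 for Hbegf. These 5 genes fell in the fenestrated cells of WT mice, and Ccnd1 stood in the other endothelial cells at 44.0, 46.6 and 60.7 CPM in sham + WT and 60.5 and 29.2 in MCAO/R + WT mice. The Col15a1 difference ran from -3.70 to -0.553 over 19 alternatives, and its call did not hold in 6 of them. Slit3, an axon guidance ligand, differed by -12.36, a fitted size that rests on 0 UMIs in the fenestrated cells of both MCAO/R + WT libraries and is no measure of the change. S100a4 differed by 12.90, Cfap299 by 5.99 and S100a6 by 3.22, and in MCAO/R + WT replicate 1 at least 87.6% of the UMIs of each came from 1 cell.

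For the difference between the genotypes after MCAO/R, transcripts of other cell types gave positive values, with 12.76 for Slc4a10, 13.39 for Ermn, 7.66 for Trpm3, 4.29 for Igfbp2, 5.55 for Erbb4, 4.49 for Mag and 3.04 for Trf. The largest are no firm measure of size, with SEs of 3.35 for Slc4a10 and 2.56 for Ermn. Ermn ran from 3.82 to 13.73 over the alternatives. In MCAO/R + Lrg1-/- replicate 2, 100% of the Ermn UMIs, 90.8% of the Trpm3 UMIs, 82.3% of the Trf UMIs and 60.3% of the Mag UMIs came from 1 cell. Negative values were -6.91 for Dnah12, -5.63 for Nnat, -5.20 for Mgp, -3.08 for Lrrc28, -2.70 for Asb4 and -2.43 for Zswim4. The calls for Asb4 and Zswim4 did not hold in 12 and 11 of 19 alternatives. Mgp was at 0 in the fenestrated cells of MCAO/R + WT replicate 2, and Nnat, Dnah12, Mgp and Lrrc28 reversed when that library took the place of replicate 1.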

How the results depend on the processing

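Counts of called genes (93 for MCAO/R in WT mice, 140 for genotype after MCAO/R, 263 and 170 for the differences from other endothelial cells) moved with several settings, and the cause was not tested except where fewer cells or genes entered. For the first contrast they were 54 with DESeq2, 213 with no filter on low counts, 147 with at least 5 fenestrated cells per library (143 without sham + Lrg1-/- replicate 1), 48 without the top doublet scores, 20 after thinning to 2000 UMIs (1439 genes tested) and 43 with at least 5 cells and without MCAO/R + WT replicate 1. In the same order, genotype gave 135, 370, 332 (335), 0, 18 and 45, and also 77 at a 10% mitochondrial limit, 83 with at least 3 endothelial genes and 44 without cells carrying ependymal or epithelial genes. The difference of responses gave 101 with DESeq2, 24 thinned, 59 without MCAO/R + WT replicate 1 and 167 without those cells, and the difference of genotypes 56 with DESeq2, 88 without doublet scores and 10 thinned. Leaving out 1 library gave 69 to 133, 85 to 317, 169 to 380 and 131 to 210 calls.

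Thinning moved the share in sham + Lrg1-/- replicates 1 and 2 to 0.0983% and 0% and the barrier level (summed UMIs per 10000) to 26.3 in sham + WT replicate 1 and 30.7 in MCAO/R + WT replicate 2, and in the 2 cells of sham + Lrg1-/- replicate 5 from 26.4 to 12.5. With at least 5 cells and without MCAO/R + WT replicate 1, S100a6 reversed to -4.34 (MCAO/R), Dnah12 to 2.79 and Mgp to 5.63 (genotype). In the differences from other endothelial cells it reversed 3300002A11Rik to -0.08475, S100a4 to -0.04431, Gm10714 to -0.1631, Zbbx to -0.08196, Ccdc39 to -0.08887, Mrpl15 to 0.06827, Cfap299 to -7.23 and S100a6 to -10.82 (MCAO/R), and S100a4 to 5.59, Dnah12 to 8.28, Cfap299 to 7.20, Lrrc28 to 1.15, Mgp to 9.60 and Nnat to 10.16 (genotype). Without cells carrying ependymal or epithelial genes, S100a4 reversed to -0.96 and Cfap299 to -5.74 (MCAO/R), and S100a4 to 6.18 and Nnat to 0.70 (genotype). Igfbp2 reversed to -0.02794 at the 10% mitochondrial limit.

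Deviations of same-numbered mice from their group means gave 4 correlations of -0.0487 to 0.041. With so few cells and libraries these cannot decide whether the numbers pair the mice. With the replicate number as a block and at least 5 cells, 118 and 116 genes were called, and Dnah12 reversed to 2.12.

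For MCAO/R in WT mice, Fkbp5, Tsc22d3, Mt1, Lpl, Ucp2, Xdh, Kalrn and Slc3a2 were called in 19 of 19 alternatives, with Fkbp5 at 5.70 to 6.35. Nrp1, Kalrn, Ehd4 and Cxcl12 were likewise called in 19 of 19 for the difference of responses and Lpl for that of genotypes. A fit restricted to cells of low barrier sum could not be made, since sham + WT replicates 1 and 3 alone kept at least 10 such cells, and at 10 cells MCAO/R + WT replicate 1 could not be left out. Depth limits the rest: most libraries held few fenestrated cells, so large changes too could go uncalled, and a list with no call does not show that its genes did not change.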
